A study of Mus musculus with 6 samples.

Results

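The 8 genes described here are Camp, Ltf, Ngp, Chil3, Cd177, Retnlg, Wfdc21 and Ly6g, which are used as markers of neutrophil secondary granules and of neutrophil maturation. They were chosen by name and all 8 were found among the 20140 genes of the count table. RNA was taken from whole livers of BALB/c mice on day 21, with 2 livers in each of 3 groups. Sham mice were the study's sham-operated controls and had received no tumor cells. Intra-C mice carried CT26 cells, a mouse colon carcinoma line, implanted in the cecum, and intra-S mice had received CT26 cells by injection into the spleen. The labels name the groups only as control, intra-C and intra-S, and the route of injection is taken from the study's description of its models, which calls the intra-C liver at this time premetastatic and the intra-S liver metastatic. The labels give no age and do not say that tumor nodules were cut away from the intra-S livers. The labels describe replicate livers of a group and not whether each came from its own mouse or batch, so the p-values measure the spread between these livers only.

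Neutrophils are made in the bone marrow and fill their granules in waves. Promyelocytes make the primary granules with myeloperoxidase and elastase, myelocytes and metamyelocytes make the secondary granules with lactoferrin and cathelicidin, and receptors for chemokines and growth factors come up as the cells mature. Since each wave of transcription stops before the next stage is complete, mRNA of secondary granule proteins is at its highest in immature neutrophils of the marrow and falls in circulating cells. In adult mouse liver neutrophils are normally few.

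Among the genes of secondary granule contents, Ltf encodes lactoferrin, an iron-binding protein, Camp encodes the cathelicidin CRAMP, an antimicrobial peptide precursor, and Ngp encodes neutrophilic granule protein, a relative of the cystatins. Chil3 encodes the chitinase-like lectin Ym1, which macrophages can also make. Cd177 and Ly6g encode GPI-anchored surface proteins, and Ly6g is the antigen by which mouse neutrophils are usually sorted. Retnlg encodes a resistin-like secreted protein of myeloid cells. Wfdc21 encodes a small secreted protein with a whey acidic protein domain.

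Ngp, Ltf and Camp lie within 1195 kb of each other on chromosome 9, and the other 5 genes lie on 5 other chromosomes. In RefSeq coordinates of GRCm38.p6, the patch release of the mm10 build to which the reads were aligned, Camp is at chr9:109847377-109849456 on the minus strand, Ngp at chr9:110419808-110423012 and Ltf at chr9:111019292-111042766, both on the plus strand. Chil3 is at chr3:106147554-106167564 and Cd177 at chr7:24743983-24760334, both on the minus strand. Retnlg is at chr16:48872608-48874498, Wfdc21 at chr11:83746940-83752646 and Ly6g at chr15:75155261-75159128, all on the plus strand. All 8 are protein-coding, and none overlaps another annotated gene.

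RefSeq promoter windows, from 250 bases before to 50 bases after the gene start, were found for 7 of the 8 genes, with 2 windows for Ly6g. C/EBP family factors, among them the granulocyte factor encoded by Cebpe, bind sites related to TTGCNNAA. On either strand these letters occurred in 4 of the 8 windows (4 of 7 genes, Ltf, Ngp, Retnlg and Ly6g in its first window) and in 10.8% of the 32851 windows of the same 300 bases. The core GAGGAA, to which the myeloid factor PU.1 binds, occurred on either strand in 3 of the 7 genes (Ltf, Cd177 and both overlapping windows of Ly6g) and in 28.3% of all windows, and no match of one motif overlapped a match of the other in these windows. A match of letters is a description and not a measured binding site. The windows of the most abundant of the genes that were near 0 in sham livers, Ngp, and of its chromosome 9 neighbour Ltf are shown 5′ to 3′ on the plus strand (chr9:110419558-110419857 and chr9:111019042-111019341), with the TTGCNNAA matches in capitals.
Ngp: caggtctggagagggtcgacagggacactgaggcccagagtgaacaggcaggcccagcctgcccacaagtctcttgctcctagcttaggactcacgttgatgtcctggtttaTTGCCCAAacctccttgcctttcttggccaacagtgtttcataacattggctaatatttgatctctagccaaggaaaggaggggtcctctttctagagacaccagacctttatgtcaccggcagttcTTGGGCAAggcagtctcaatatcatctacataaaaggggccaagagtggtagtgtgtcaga
Ltf: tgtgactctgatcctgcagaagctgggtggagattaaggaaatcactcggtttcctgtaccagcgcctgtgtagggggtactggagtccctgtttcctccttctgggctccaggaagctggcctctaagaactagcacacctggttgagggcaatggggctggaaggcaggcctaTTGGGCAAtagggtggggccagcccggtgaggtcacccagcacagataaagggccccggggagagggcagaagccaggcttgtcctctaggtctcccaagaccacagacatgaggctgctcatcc
In the Ngp window the matches began 138 and 11 bases before the start, and in the Ltf window the match began 75 bases before it.

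The 6 libraries held between 32838321 and 43368309 counts. CPM are counts relative to library totals scaled by TMM. For a count of 0 the limit was set at 3 counts, about its upper 95% limit, which stood for 0.0679 to 0.0928 CPM. Such limits and the intervals below cover counting error only. The 6 hepatocyte markers fixed for the check of the tissue summed to between 102494 and 178155 CPM in every liver. In bulk RNA, fewer cells of a type cannot be told apart from less RNA per cell.

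Of the 8 genes, 7 were at or near 0 in both sham livers. These 7 were counted 48 to 6572 times in the intra-C and intra-S livers. Wfdc21 was abundant in all 6 livers. Summed over these 7 genes, the level was 0.296 and 0.543 CPM in sham, 80.5 and 234 CPM in intra-C and 435 and 119 CPM in intra-S livers. In CPM, no sham liver overlapped an intra-C or intra-S liver for any of the 8 genes. Of all genes tested, 34.4% lay above sham without overlap in intra-C and 30.4% in intra-S livers.

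**Figure D1:**
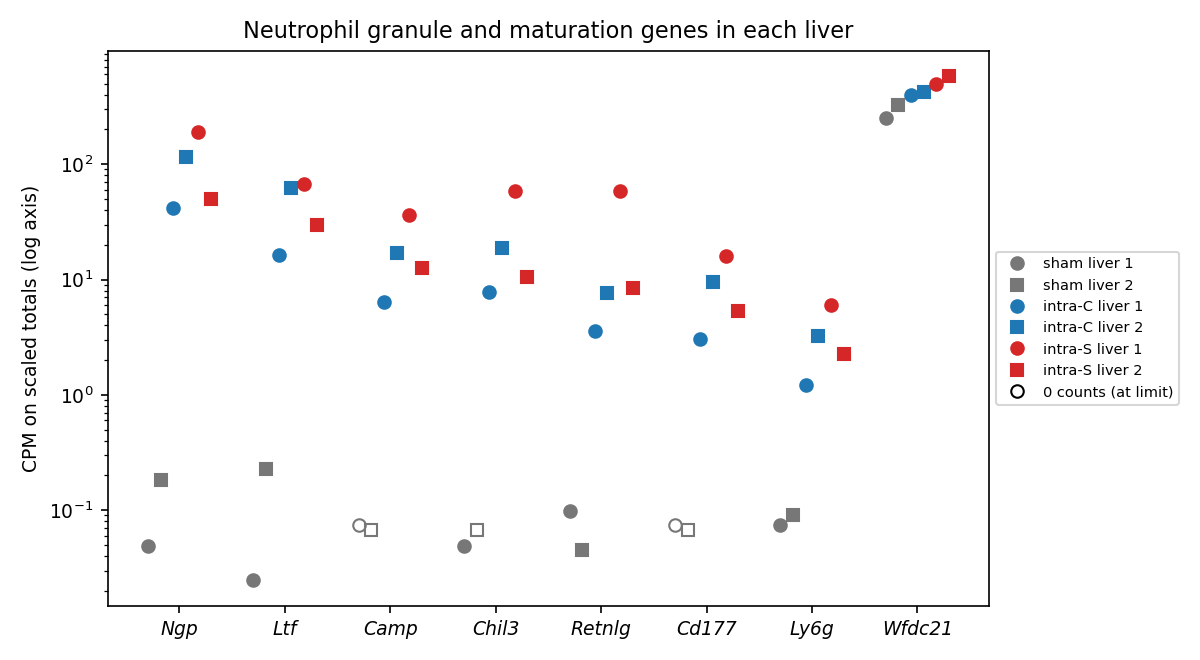
Level of each of the 8 genes in each liver, in CPM on scaled totals (log axis). Each point is 1 liver, circles are replicate 1 and squares replicate 2, and open symbols mark 0 counts, drawn at the level of 3 counts. The sham livers (gray) lie at or under 0.226 CPM for 7 genes, and for Wfdc21 they lie at 254 and 328 CPM.

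The intra-C livers were compared with the sham livers to ask how these genes stood in a liver whose mouse carried a tumor in the cecum. By edgeR's quasi-likelihood test with Benjamini-Hochberg adjustment over the 16370 genes tested, 7 of the 8 genes were called higher at an adjusted p under 0.05, and 0 lower, where 4.92% of all genes tested were called higher and 2.38% lower. In CPM, all 8 were higher without overlap, as were 34.4% of the genes tested. The median log2 fold change of the 8 genes was 8.58, or 6.93 with the genes at 0 in sham livers set to their limits, and that of all genes tested was 0.01.

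Ngp had the highest level per gene length of the 7 genes. It gave 2 and 8 counts in the sham livers and 1655 and 3753 counts in the intra-C livers, or 0.0493 and 0.181 against 42.1 and 116 CPM. The ratio of the summed, scaled counts was 640 (95% exact counting interval 348 to 1336), and the log2 fold change was 9.36 (SE 1.12, edgeR adjusted p = 0.0112). The intra-C livers themselves differed 2.75-fold.

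Ltf gave 1 and 10 counts in the sham livers and 641 and 1994 counts in the intra-C livers. Its level went from 0.0246 and 0.226 CPM to 16.3 and 61.7 CPM, a ratio of 284 (158 to 569) and a log2 fold change of 8.21 (SE 1.09, edgeR adjusted p = 0.0148). Of the 8 genes it had the widest gap between the intra-C livers, 3.78-fold.

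Camp was not counted in either sham liver and gave 253 and 553 counts in the intra-C livers (6.44 and 17.1 CPM). Against 3 counts in each sham library, the intra-C mean of 11.8 ± 7.54 CPM (SD, n = 2 livers) was at least 166-fold higher, and the lower of the 2 livers at least 90.9-fold (edgeR adjusted p = 0.0171). Cd177 was also at 0 in both sham livers. It gave 119 and 310 counts (3.03 and 9.59 CPM) in the intra-C livers, a mean at least 89.0-fold higher, and at least 42.7-fold in the lower liver (edgeR adjusted p = 0.0235).

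Chil3 gave 2 and 0 counts in the sham livers and 304 and 612 counts in the intra-C livers (7.74 and 18.9 CPM). With so few sham counts its ratio of 542 had a counting interval from 150 to 4484 (log2 fold change 8.95, SE 1.42, edgeR adjusted p = 0.0219). Retnlg rose from 4 and 2 counts to 141 and 245 counts (3.59 and 7.58 CPM), a ratio of 76.2 (34.7 to 209) and a log2 fold change of 6.23 (SE 1.24, edgeR adjusted p = 0.0375). For both genes the lower intra-C liver was far above the higher sham liver.

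Ly6g, the sorting antigen, had the smallest rise of the 7. It gave 3 and 4 counts in the sham livers and 48 and 104 counts in the intra-C livers (1.22 and 3.22 CPM), a ratio of 25.7 (12.2 to 65.0) and a log2 fold change of 4.69 (SE 0.83, edgeR adjusted p = 0.0290).

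Wfdc21 differed from the others in its level in sham livers. It gave 10330 and 14501 counts there (254 and 328 CPM) and 15656 and 13701 counts in the intra-C livers (399 and 424 CPM). In CPM the groups did not overlap, although the raw counts did. The log2 fold change of 0.50 (SE 0.22) was not called (edgeR adjusted p = 0.213). Without intra-S liver 1, it was called (edgeR adjusted p = 0.0479) in a fit that called 14.5% of all genes tested higher, and with each liver left out in turn the adjusted p ran from there to 0.708. In TPM, which is per gene length, Wfdc21 stood at 1308 and 1682 in the sham livers, rank 100 and rank 73 of the 20140 genes, where Ngp was at ranks 16618 and 14191. Its level in sham livers therefore goes against its label as a neutrophil gene in whole liver, and it is described apart from the other 7 genes below. Which cells it came from was not tested.

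Without sham liver 1, sham liver 2 or intra-C liver 2, edgeR called 0 of the 8 genes in this comparison, with 7 at an unadjusted p under 0.05 each time, and without intra-C liver 1 it called 2 (Ltf and Ngp). Over all genes tested it then called 0.0%, 0.0%, 0.346% and 0.369%. The log2 fold change of Ngp was 8.75, 10.55, 8.48 and 9.92 in these fits. With limma on log2(TPM + 1), 4 of the 8 were called, and Cd177, Retnlg and Ly6g were not (adjusted p = 0.0685, 0.0558 and 0.0644).

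The intra-S livers were compared with the same sham livers, so the 2 comparisons are not independent and are given side by side. EdgeR again called 7 of the 8 genes higher, against 6.78% of all genes tested, and 0 lower, against 3.95%, and all 8 were higher without overlap, against 30.4%. The median log2 fold change was 9.40, or 8.48 with the genes at 0 in sham livers set to their limits, against 0.04 over all genes tested.

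Among the secondary granule genes, Ngp gave 6572 and 2036 counts in the intra-S livers (192 and 49.9 CPM), a ratio of 972 to sham (528 to 2028) and a log2 fold change of 9.97 (SE 1.14, edgeR adjusted p = 0.00782). Ltf gave 2317 and 1225 counts (67.5 and 30.0 CPM), a ratio of 364 (203 to 729) and a log2 fold change of 8.53 (SE 1.10, edgeR adjusted p = 0.0109). Camp gave 1237 and 514 counts (36.1 and 12.6 CPM), at least 343-fold above the sham limit on average and at least 178-fold in the lower liver (edgeR adjusted p = 0.0112). In all 3 genes intra-S liver 1 was above intra-S liver 2.

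Chil3 gave 2011 and 427 counts in the intra-S livers (58.6 and 10.5 CPM), with a ratio to sham of 1377 (381 to 11375) and a log2 fold change of 10.33 (SE 1.43, edgeR adjusted p = 0.0133). Retnlg gave 2017 and 343 counts (58.8 and 8.41 CPM), with a ratio of 444 (204 to 1212) and a log2 fold change of 8.82 (SE 1.29, edgeR adjusted p = 0.0146). These were the genes that differed most between the intra-S livers, by 5.60-fold for Chil3 and 6.99-fold for Retnlg.

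Of the surface proteins, Cd177 gave 545 and 216 counts (15.9 and 5.30 CPM), at least 149-fold above the sham limit on average and at least 74.7-fold in the lower liver (edgeR adjusted p = 0.0156). Ly6g gave 207 and 93 counts (6.03 and 2.28 CPM), a ratio of 48.4 (23.2 to 121) and a log2 fold change of 5.60 (SE 0.84, edgeR adjusted p = 0.0154). Ly6g again had the smallest rise of the 7.

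Wfdc21 gave 17078 and 23711 counts in the intra-S livers (498 and 582 CPM), and its log2 fold change of 0.89 (SE 0.23) missed the threshold (edgeR adjusted p = 0.0550). DESeq2 called it (log2 fold change 0.88, adjusted p = 0.00537), as did edgeR without intra-S liver 1 (adjusted p = 0.0110) or intra-S liver 2 (adjusted p = 0.0189), fits that called 9.58% and 17.3% of all genes tested higher. Over the fits with each liver left out the edgeR adjusted p ran from 0.0110 to 0.380. Without sham liver 1 or sham liver 2, edgeR called 0 of the 8 genes, with 7 and 8 at an unadjusted p under 0.05, and 0.0% of all genes tested. The log2 fold change of Ngp was 9.36 and 11.16 in these fits.

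**Figure D2:**
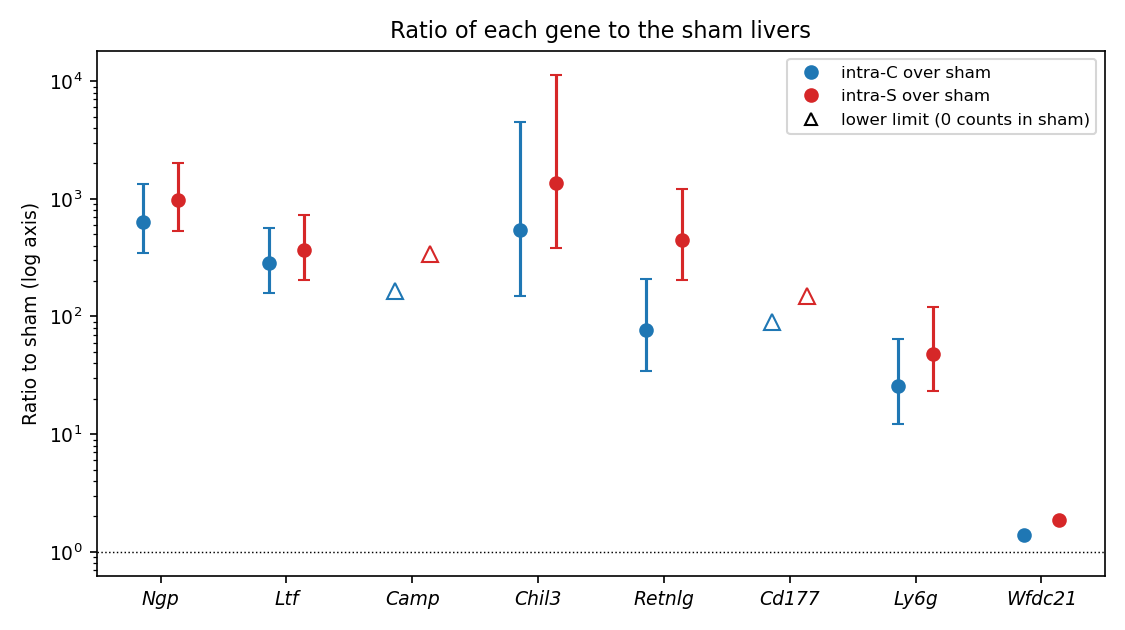
Ratio of each gene in intra-C (blue) and intra-S (red) livers to sham livers on a log axis. Circles are ratios of scaled counts summed over the 2 livers of a group with 95% exact counting intervals, triangles are lower limits where both sham livers had 0 counts, and the dotted line marks equal levels. For 7 genes the ratios and limits run from 25.7 to 1377, and for Wfdc21 they are 1.40 and 1.86.

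The intra-S livers were then compared with the intra-C livers, to ask whether the genes differed between the models. EdgeR called 0 of the 8 genes, and it called 0.0% of all genes tested in either direction. At an unadjusted p under 0.05 there were 1144 higher and 1049 lower genes. DESeq2 called 1 of the 8 genes, and 234 genes higher and 272 lower over the whole table. The log2 difference was above 0 for each of the 8 genes, from 0.32 (SE 0.72) for Ltf to 2.59 (SE 0.87) for Retnlg. For Ltf, Ngp, Chil3 and Cd177 it turned to -0.37, -0.66, -0.35 and -0.25 without intra-S liver 1, and for Ltf to -0.34 without intra-C liver 1. The misses of the threshold do not show that the models had equal levels.

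Retnlg and Wfdc21 were the 2 of 8 genes whose intra-S livers both lay above both intra-C livers, a share near the 21.9% of all genes tested that did so. For Retnlg the lower intra-S liver (8.41 CPM) was just above the higher intra-C liver (7.58 CPM). It was the only one of the 8 genes that edgeR gave an unadjusted p under 0.05, with an edgeR adjusted p of 0.327, and DESeq2 called it (adjusted p = 0.0410). The difference was 0.60 without intra-S liver 1 (edgeR adjusted p = 0.528) and 3.40 without intra-S liver 2 (edgeR adjusted p = 0.00233), where Chil3 was called too (2.14, adjusted p = 0.0235). In the latter fit edgeR called 7.53% of all genes tested higher (1312 higher and 1572 lower of 17429). The log2 difference of Wfdc21 was 0.39 (SE 0.22, edgeR adjusted p = 0.472).

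In CPM, the order of the 4 intra-C and intra-S livers was the same for 6 of the 8 genes. For Camp, Ltf, Ngp, Chil3, Cd177 and Ly6g, intra-S liver 1 was highest, followed by intra-C liver 2, intra-S liver 2 and intra-C liver 1. The 2 groups were thus interleaved for these genes. In TPM, Ltf was instead highest in intra-C liver 2 (45.9 TPM, against 43.6 TPM in intra-S liver 1). In Retnlg intra-S liver 2 moved above intra-C liver 2, and in Wfdc21 it was the highest of all. The gap between the 2 livers of a group was 1.06-fold (intra-C) and 1.17-fold (intra-S) for Wfdc21, smaller than for each of the other 7 genes in these groups.

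To compare levels between genes, the deposited TPM values were used, which are per gene length. Ngp was the most abundant of the 7 genes in every intra-C and intra-S liver. It stood at 69.3 and 204 TPM in the intra-C and 292 and 81.5 TPM in the intra-S livers. It made up 54.7% of the summed TPM of the 7 genes in both intra-C livers and 41.6% and 43% in the intra-S livers. Camp held between 15.2% and 21% in the 4 livers, and Ltf between 6.21% and 12.3%. Retnlg held 8.90% and 6.82% in the intra-C livers against 24.4% and 13.8% in the intra-S livers, so that its ratio to Ngp was 0.163 and 0.125 against 0.586 and 0.322. Chil3 held between 6.73% and 9.60%, and Cd177 and Ly6g held least, from 1.46% to 1.93% and from 1.62% to 2.44%. Intra-C liver 1 and liver 2 thus had the same share of Ngp although their summed levels differed. With 2 livers in each group, these shares were not tested.

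**Figure D3:**
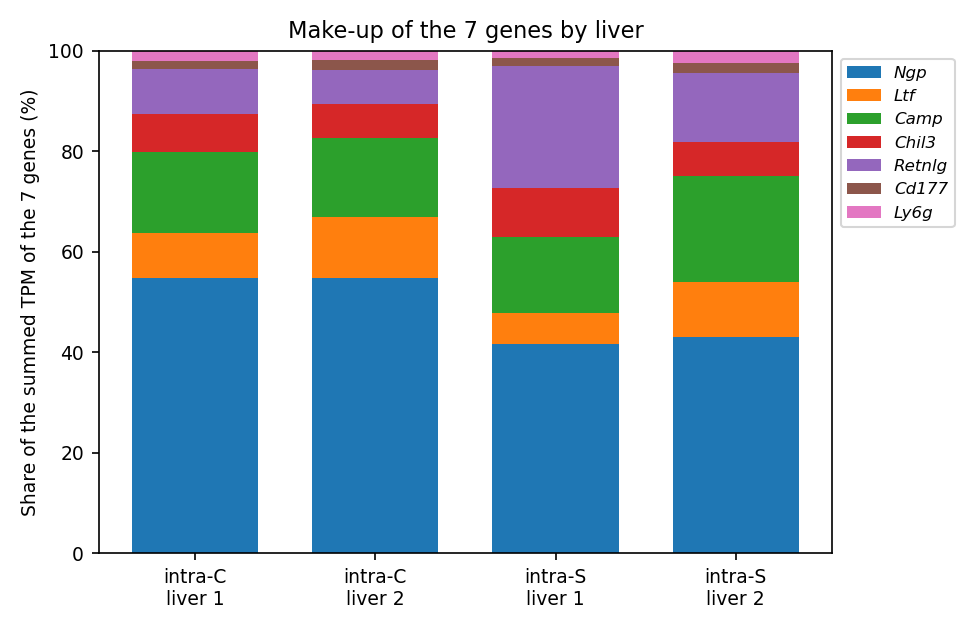
Share of each of the 7 genes other than Wfdc21 in their summed TPM, in percent, for each of the 4 intra-C and intra-S livers. Each bar is 1 liver. Ngp holds 54.7% in both intra-C livers and 41.6% and 43% in the intra-S livers, and Retnlg is largest in intra-S liver 1 at 24.4%.

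Other genes of the neutrophil program were taken from lists, and counts over them are descriptions. Of 13 other granule genes, 9 were called higher in intra-C and 12 in intra-S than in sham livers, and 0 lower, with median log2 fold changes of 3.71 and 4.73. The most abundant of them was Lcn2, lipocalin 2, an iron-siderophore binding protein of secondary granules that hepatocytes also secrete in inflammation. It stood at 7.76 and 7.65 CPM in sham, 1508 and 2819 CPM in intra-C and 1628 and 3400 CPM in intra-S livers, with log2 fold changes of 8.13 (SE 0.59, edgeR adjusted p = 0.00543) and 8.35 (SE 0.59, edgeR adjusted p = 0.00446). Unlike the 6 genes with the shared order of livers in CPM, Lcn2 was highest in intra-S liver 2. Lyz2, lysozyme, and Cybb, a subunit of the phagocyte oxidase, both also expressed by macrophages, had log2 fold changes of 2.27 and 3.25 in intra-C and of 2.5 and 2.64 in intra-S livers (edgeR adjusted p from 0.00664 to 0.0169).

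The primary granule genes, which belong to the stage before secondary granules, were also near 0 in sham livers. Of the 7 genes on the list, 6 were called higher in each comparison with sham, and Prss57 was not (edgeR adjusted p = 0.0895 and 0.0982). Summed over the list they stood at 83.8 and 118 CPM in the intra-C and at 54.8 and 87.4 CPM in the intra-S livers. The low sum of intra-S liver 1 rested on Prtn3. Without it the sums were 27.7 and 68 CPM in intra-C and 37.7 and 38.5 CPM in intra-S livers, and of the 7 genes 5 were lowest in intra-C liver 1 and 2 in intra-S liver 1. The summed TPM of the 7 genes other than Wfdc21 over that of the primary granule genes was 10.3 in intra-S liver 1, against 0.902, 2.06 and 1.41 in intra-C liver 1, intra-C liver 2 and intra-S liver 2. Without Prtn3, an alternative chosen after seeing the data, it was 19.2 against 4.22, 4.88 and 4.89. Mpo, myeloperoxidase, gave 14.5 and 36.0 CPM in intra-C and 19.3 and 21.7 CPM in intra-S livers, and Prtn3, proteinase 3, gave 56.2 and 49.7 against 17.1 and 48.8 CPM. Elane, neutrophil elastase, gave 5.75 and 13.9 against 7.90 and 6.74 CPM.

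With Wfdc21 included, the summed TPM of all 8 genes over that of the primary granule genes was 2867 and 4025 in sham, 13.3 and 13 in intra-C and 40.0 and 20.2 in intra-S livers. Over the mature neutrophil genes it was 96.9 and 89.3, 2.31 and 1.41, and 1.02 and 2.21. These ratios were carried by Wfdc21. Without it, the ratio to the mature neutrophil genes was 0.0541 and 0.0488 in sham, 0.157 and 0.224 in intra-C and 0.264 and 0.155 in intra-S livers. By this ratio the intra-C and intra-S livers were higher and not lower than sham. The ratio to the primary granule genes without Wfdc21 was 1.60 and 2.20 in sham livers, so that intra-C liver 1 (0.902) and intra-S liver 2 (1.41) lay below both and intra-S liver 1 (10.3) above both. The sham ratios without Wfdc21 rest on few counts.

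Of 14 genes of mature neutrophils, 11 were called higher in intra-C and 13 in intra-S than in sham livers, and 0 lower. S100a8 and S100a9, which encode the subunits of calprotectin, were the most abundant and took in CPM the order of livers shared by the 6 genes. S100a8 gave 0.394 and 0.634 CPM in sham, 73.9 and 142 CPM in intra-C and 272 and 121 CPM in intra-S livers, and S100a9 gave 1.53 and 2.15, 109 and 226, and 403 and 165 CPM. Csf3r, the receptor for the growth factor G-CSF, was already expressed in sham livers at 1.33 and 1.40 CPM. It had log2 fold changes of 3.25 (SE 0.33, edgeR adjusted p = 0.00738) in intra-C and 3.15 (SE 0.33, edgeR adjusted p = 0.00670) in intra-S livers, beside 9.36 and 9.97 for Ngp and 4.69 and 5.60 for Ly6g. In TPM, Ngp stood to Csf3r as 0.187 and 0.650 in sham livers, from 2 and 8 counts of Ngp, as 20.3 and 37.6 in intra-C and as 67.7 and 25 in intra-S livers. The difference between the fold changes of these genes was not tested.

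Of the 9 listed regulators of granulopoiesis, 8 were in the table and were tested. EdgeR called 4 higher and 1 lower in intra-C and 6 higher and 0 lower in intra-S than in sham livers. Cebpe, the factor required for secondary granule gene expression, was at 0 in both sham livers and gave 0.789 and 2.60 CPM in intra-C and 2.51 and 0.736 CPM in intra-S livers (edgeR adjusted p = 0.0390 and 0.0326). Gfi1, a repressor needed for neutrophil differentiation, was also at 0 in sham and was called in intra-S (edgeR adjusted p = 0.0474), not in intra-C livers (0.0524). Spi1, which encodes PU.1, rose by log2 fold changes of 2.02 and 2.39, Runx1 by 2.63 and 3.33, and Stat3, the mediator of G-CSF and IL-6 signals that hepatocytes express too, by 1.82 and 1.03 (edgeR adjusted p at most 0.0279 for these genes). Cebpd was called in intra-S livers (2.76, edgeR adjusted p = 0.0421), and had 1.75 in intra-C livers (0.131). Cebpa, which hepatocytes also express, fell by 1.70 in intra-C livers (edgeR adjusted p = 0.0423), with -0.66 in intra-S livers (0.258). Cebpb was called in neither (log2 fold changes 0.34 and 0.91, edgeR adjusted p = 0.682 and 0.238). Between intra-S and intra-C livers edgeR called 0 of the 8 regulators, with 2 at an unadjusted p under 0.05 and 1 called by DESeq2. The 6 relatives of the 8 genes found in the table included Chil1, Ly6c1 and Wfdc17, which edgeR called higher in both comparisons with sham. EdgeR called Trf higher in intra-S livers only, and Ly6c2 and Ly6e in neither comparison. DESeq2 called 5 of the 6 relatives in each comparison with sham.

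Markers of other cells moved with the 7 genes in part. Of 5 Kupffer cell markers, 5 were called higher in intra-C and 4 in intra-S than in sham livers, and of 7 markers of monocytes and macrophages 5 were called higher in each. The latter summed to 29.8 and 27.5 CPM in sham, 148 and 208 CPM in intra-C and 116 and 181 CPM in intra-S livers. Intra-S liver 1, which had the most Chil3, was the lowest of the intra-C and intra-S livers. Mrc1, a marker of alternatively activated macrophages, a state in which Chil3 is used as a marker, was called higher in both comparisons. Of 7 erythroid markers, 0 were called in intra-C (0 also by DESeq2 or at an unadjusted p under 0.05) and 7 higher in intra-S livers, with sums of 228 and 410 CPM in sham, 409 and 258 CPM in intra-C and 1725 and 1201 CPM in intra-S livers. None of the tested markers of T and NK cells (6), of B cells (4) or of eosinophils, basophils and mast cells (2) was called by edgeR in either comparison, and DESeq2 called 1 of T and NK cells in intra-S livers and 1 of the last in each comparison. At an unadjusted p under 0.05 edgeR had 0 and 1, 2 and 0, and 1 and 1 of these markers in intra-C and intra-S livers. Among the last, Siglecf, Prg2 and Cpa3 were at 0 in both sham livers. Of 4 tested epithelial markers edgeR called 0 and 1 in intra-C and intra-S livers (DESeq2 0 and 1, and 0 and 2 at an unadjusted edgeR p under 0.05). Krt20, an intestinal keratin on the same list, did not pass the filter on low counts and gave 250 counts (6.13 CPM) in intra-S liver 2 and 0 counts in the other 5 livers. Of 4 stem and progenitor markers edgeR called 1 and 0 (DESeq2 2 and 3, and 3 and 3 at an unadjusted edgeR p under 0.05). Of 6 hepatocyte markers edgeR called 1 lower in intra-C and 1 higher in intra-S livers, and DESeq2 called 3 and 2. The part of these cells in the levels of the 8 genes was not tested.

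**Figure D4:**
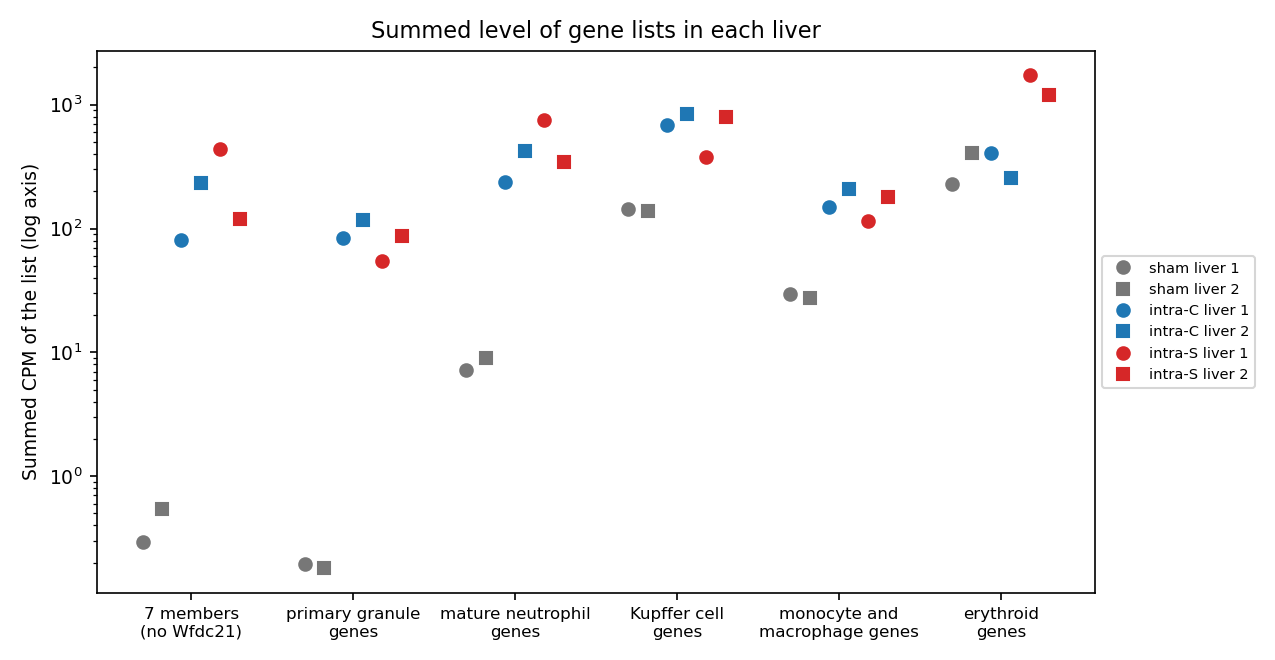
Summed level of gene lists in each liver, in CPM (log axis). Each point is 1 liver, circles are replicate 1 and squares replicate 2. Intra-S liver 1 is the highest for the 7 genes other than Wfdc21 (435 CPM) and for the mature neutrophil genes (749 CPM). For the primary granule genes it is at 54.8 CPM, below intra-S liver 2 and both intra-C livers. Without Prtn3 it is at 37.7 CPM, above intra-C liver 1 at 27.7 CPM.

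The genes whose log2 CPM over the 6 livers was most like the mean profile of the 8 genes were sought among 12671 genes with a mean of at least 1 CPM. By Pearson's r over the 6 livers, as a description of points that share libraries and 3 groups, these were Lyl1 (0.999), Ppp1r18 (0.998), Actr3-ps (0.998), Pglyrp1 (0.998) and Spi1 (0.997). Without Wfdc21 they were Pglyrp1 (0.999), Ppp1r18 (0.999), Mcemp1 (0.998), Ikzf1 (0.998) and S100a9 (0.998). Pglyrp1, a peptidoglycan recognition protein of neutrophil granules, was in both sets and gave 0.0493 and 0.0453 CPM in sham, 2.65 and 6.25 CPM in intra-C and 13.3 and 5.37 CPM in intra-S livers.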

How the data were processed

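Poly-A RNA of 6 livers was sequenced. According to the submitters' processing notes the tools were HISAT2 2.1.0 and featureCounts (Subread 2.0.6), with mm10. The authors deposited raw counts per gene and TPM, which they calculated from the counts and gene lengths. The annotation and whether counting used strand are not given in the sources used here. Counts were tested with edgeR 4.0.16's quasi-likelihood test in 1 fit over all 6 livers (R 4.3.3, TMM, filterByExpr with a count minimum of 10). P-values were adjusted by Benjamini-Hochberg over 16370 genes (threshold 0.05). The procedure was run on simulated data that changed only genes expressed in sham livers, so changes from near 0 were not tried. SE is the log2 fold change divided by the root of F. With 2 against 2 livers no exact permutation p can be below 0.333. All 8 members were named, with the 3 tested genes of highest mean CPM of the neutrophil lists, called regulators and the 5 genes of most similar profile. Of other lists counts and sums are given, and further genes named there were chosen after their values were seen. The members and lists were chosen with earlier results of these data known. Alternatives were DESeq2 1.42.0, limma 3.58.1 on log2(TPM + 1) or log2(TPM + 0.1), other filters, scalings and spreads, only the 2 groups compared, a replicate block, each liver left out, and for list ratios CPM or shorter lists.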

Additional observations from a re-analysis of the deposited data

How the results depend on the processing

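In the comparisons with sham livers, 7 of the 8 genes stayed called without a filter, with at least 10 counts in a group, with only the 2 groups compared, by library size without TMM, with TMM without the 100 most abundant genes, with a robust spread and with limma on log2(TPM + 0.1). With limma on log2(TPM + 1) it was 4 in intra-C and 7 in intra-S livers. DESeq2 called 7 and 8, and 1 (Retnlg) between intra-S and intra-C livers. With each liver left out, where a group of 1 liver is assumed to vary like the others, 0 to 8 genes were called in each comparison with sham and 0 to 2 between intra-S and intra-C livers. The reversed log2 differences between these were -0.34 (Ltf, without intra-C liver 1) and -0.37, -0.66, -0.35 and -0.25 (Ltf, Ngp, Chil3 and Cd177, without intra-S liver 1). With each liver left out these differences ran from -0.37 to 1.57 for Ltf, -0.66 to 1.51 for Ngp, -0.35 to 2.15 for Chil3 and -0.25 to 1.79 for Cd177. The cause was not tested. Under these alternatives no member changed sign against sham.

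The mean ratios of the 8 genes to the mature neutrophil genes (1.86 in intra-C and 1.61 in intra-S livers) became 46.0 and 48.4 without S100a8 and S100a9, the most abundant genes of that list, and 0.191 and 0.209 without Wfdc21, an alternative chosen after seeing the data. Those to the primary granule genes (13.1 and 30.1) became 5.65 and 12.5 in CPM, 1.48 and 5.88 without Wfdc21, and 46.4 and 71.9 with Prtn3 left out of that list, also chosen after seeing the data.

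Over 16370 genes, livers with the same replicate number showed little shared deviation between groups (r = -0.032, 0.0827 and 0.0428). These values do not decide whether the numbers mark a batch or pairing, since a batch that changed few genes would also give a low r. With the replicate block 7, 7 and 0 of the 8 genes were called in the 3 comparisons, and over all genes 673 higher and 259 lower in intra-C and 954 and 553 in intra-S against sham, where the fit without it gave 806 and 389, and 1110 and 646.

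Over all genes, library size without TMM gave 569 higher and 801 lower (intra-C) and 838 and 1116 (intra-S) and moved the median log2 fold change to -0.249 and -0.234, against which Wfdc21 stood at 0.24 and 0.62. limma gave 497 and 896, and 685 and 1553, on log2(TPM + 1), and 589 and 890, and 804 and 1476, on log2(TPM + 0.1). DESeq2 gave 1655 and 1037, and 1985 and 1390. Only the 2 groups compared gave 2548 and 2223, and 276 and 116. Without sham liver 1 or 2 edgeR called 0 genes in either comparison with sham (1527 and 1449 higher at an unadjusted p under 0.05 in intra-C, 1725 and 1684 in intra-S livers).

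Sham levels of Camp and Cd177 are limits set by depth, and those of the other 5 low genes rest on at most 11 counts summed over both livers.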
